A study of Homo sapiens with 6 samples.

Results

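Amino-acid transporters of the SLC1A, SLC3A, SLC7A, SLC36A, SLC38A and SLC43A families were followed in MDA-MB-231 cells, an established line of human triple-negative breast cancer, and in 2 derivatives of them that resist drugs against mTOR. Members were chosen by name alone, as protein-coding genes whose symbol starts with a family name and a number, and 41 of the 69292 gene IDs in the count table matched. SLC7A6OS was 1 of them. It is the opposite-strand neighbour of SLC7A6 and is not a transporter. The rule kept it as a member, so it is included in the counts, medians and sums below, also where the members are called transporters. Of the 41 genes, 27 had at least 10 counts in 2 libraries. They are described here, and all 27 were tested. The other 14 had fewer counts. SLC38A5 reached at most 14 counts in a library and SLC7A10 at most 12, while SLC1A2, SLC1A6, SLC36A2, SLC36A3, SLC38A3, SLC38A8, SLC38A11, SLC7A3, SLC7A4, SLC7A8, SLC7A13 and SLC7A14 reached at most 5.

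RNA was sequenced from 6 libraries, 2 in each of 3 groups. The parental group was the wild-type line without a rapalog: the treatment label gives DMSO, while the protocol states that no drug was given. The everolimus group was the resistant derivative called DREVE, held in everolimus at 20 µM, and the ridaforolimus group was the derivative called DRRIDA, held in ridaforolimus at 30 µM. Culture in drug lasted several months, and all cells were grown in DMEM with fetal bovine serum. Each drug is represented by 1 derivative still in its drug, so resistance, exposure and drift of a line cannot be told apart, and the drugs differ in dose.

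Most amino acids enter cells through carriers of these families. The heavy chain SLC3A2 (4F2hc, CD98) brings light chains such as SLC7A5 and SLC7A11 to the plasma membrane, where the pairs exchange large neutral amino acids or take up cystine in return for glutamate. SLC1A5 and the SLC38 carriers bring in glutamine and other small neutral amino acids, SLC7A1 and SLC7A2 bring in arginine and lysine, and most of the SLC1A family takes up glutamate and aspartate. Leucine and arginine brought in this way are sensed upstream of mTORC1, the complex that rapalogs inhibit, and many of the genes are induced by the transcription factor ATF4 when amino acids are scarce.

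Total counts of a library ran from 13134567 to 15556246. On the first principal component (36.1% of the variance) scores were 36.4 and 73.2 in the ridaforolimus libraries and -33.7 to -22.1 in the other 4. Mitochondrially encoded genes took 4.38% and 3.0% of counts in parental cells, 2.38% and 2.15% in the everolimus line and 2.42% and 3.19% in the ridaforolimus line. Mesenchymal markers summed to between 3040 and 7706 CPM, the usual depth-scaled unit of counts, here relative to the TMM-scaled sum of counts in tested genes. Epithelial and luminal markers summed to between 448 and 686 CPM, most of it from the keratins KRT8 and KRT18 and from ERBB2, while CDH1 was at most 0.229 CPM and PGR at most 0.146 CPM. Markers of fibroblasts, leukocytes and endothelium summed to between 8.31 and 22.1 CPM, most of it from COL1A1 (5.14 to 15.6 CPM) and PECAM1 (0.457 to 11.5 CPM). DCN and CD3E were at or near 0.

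Sequences before a transcription start were examined because ATF4 acts through composite elements, written here as TGATGNAA, and because NRF2, a factor of the oxidative stress response that acts on SLC7A11, binds elements written as TGACNNNGC. Both strands of the 250 bases before each start were searched, and N stands for any base. RefSeq's promoter table for GRCh38.p14 held 41 such windows for 23 of the 27 genes, and it held none for SLC3A1, SLC7A2, SLC7A11 and SLC43A3. TGATGNAA occurred in 2 of the 41 windows (4.88%) and in 3.14% of 35116 windows of the same length over all genes. TGACNNNGC occurred in 6 of the 41 windows (14.6%) and in 10.9% of all windows. No base was shared between matches to the different motifs. The windows of SLC1A7 and SLC1A3 are printed because these genes had the largest estimates between the resistant lines, a choice made after the values were seen. SLC1A3 has 3 windows, and that with the TGATGNAA match is printed; of the others, 1 held TGACAAAGC and 1 had no match. The shorter stretches are printed because SLC1A5, SLC3A2 and SLC7A1 had a match and were among the genes with the highest level per kilobase. SLC1A5 and SLC3A2 have 3 windows each, and the printed stretches of both lie within the gene body. The windows at their outermost starts (chr19:46788595-46788844 and chr11:62855859-62856108) had no match. The third window of SLC1A5 held TGACCTCGC, and that of SLC3A2 had no match. Each printed sequence is 5′ to 3′ on the strand of the gene, in lower case with matches in capitals.
SLC1A7, chr1:53142639-53142888, minus strand, no match and no annotated exon in the window: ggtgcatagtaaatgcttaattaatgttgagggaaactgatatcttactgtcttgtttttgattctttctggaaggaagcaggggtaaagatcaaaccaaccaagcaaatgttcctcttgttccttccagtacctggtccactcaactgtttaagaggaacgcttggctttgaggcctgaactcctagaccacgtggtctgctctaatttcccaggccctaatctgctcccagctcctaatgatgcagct
SLC1A3, chr5:36596338-36596587, plus strand, TGATGNAA match 212 bases before a start, no annotated exon in the window: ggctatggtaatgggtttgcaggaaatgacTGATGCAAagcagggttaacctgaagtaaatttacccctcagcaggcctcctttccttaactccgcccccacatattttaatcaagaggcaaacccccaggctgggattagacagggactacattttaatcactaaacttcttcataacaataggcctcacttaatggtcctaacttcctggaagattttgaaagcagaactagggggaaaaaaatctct
SLC1A5, chr19:46784893-46784922, minus strand, TGATGNAA match 89 bases before a start, 13 of the 30 bases in an annotated exon: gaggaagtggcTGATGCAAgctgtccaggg
SLC3A2, chr11:62881651-62881680, plus strand, TGACNNNGC match 28 bases before a start, 13 of the 30 bases in an annotated exon: acgagggtgggTGACTCAGCgtcctccttc
SLC7A1, chr13:29595755-29595784, minus strand, TGACNNNGC match 76 bases before a start, no annotated exon in the stretch: gtgcccggcggTGACGCGGCcgagcgggcc
A match shows that the letters are present, not that a factor binds there.

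Levels of the transporters spanned a wide range. Divided by the length of the annotated exons, the level in parental cells was highest for SLC7A5, the light chain that carries leucine and other large neutral amino acids (133 and 146 CPM per kilobase). Next came the glutamine carriers SLC38A1 (113 and 114 CPM per kilobase) and SLC38A2 (88.8 and 93.7 CPM per kilobase), whose parental libraries did not overlap. SLC3A2 (73.0 and 76.3 CPM per kilobase) and SLC1A5 (61.8 and 80.3 CPM per kilobase) overlapped each other. SLC7A1 (54.5 and 57.5 CPM per kilobase) and SLC7A11 (30.0 and 33.4 CPM per kilobase) were the last of the 7 highest. These 7 held 87.0% and 88.2% of the transporters' summed CPM in parental cells, and between 77.2% and 89.2% in the resistant lines. Every other gene was at most at the 14.3 CPM per kilobase of SLC7A2 in a parental library, and the intestinal and kidney light chain SLC7A9 was lowest (0.147 and 0.0814 CPM per kilobase). Exon length counts every annotated exon of a gene, so the level of a gene with long annotated exons comes out low.

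**Figure D1:**
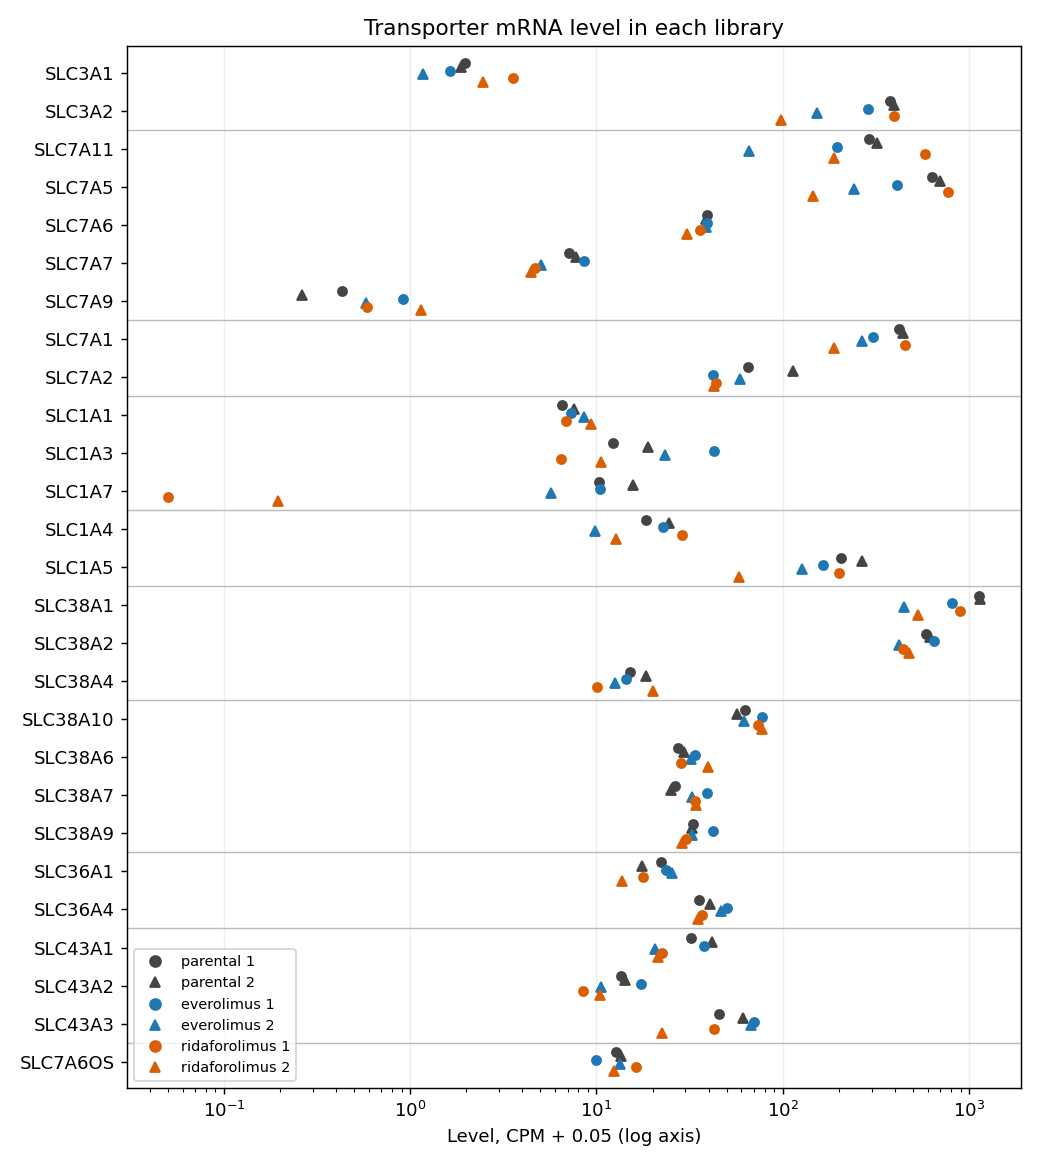
Level of each of the 27 genes in every library, in CPM plus 0.05 on a log axis, with colours for the 3 groups, circles for replicate 1 and triangles for replicate 2, and grey lines between roles. SLC1A7 has 0 and 0.146 CPM in the ridaforolimus libraries against 5.62 to 15.6 CPM in the other 4, and the triangles of SLC3A2, SLC7A5 and SLC1A5 are lowest in ridaforolimus replicate 2.

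Across the 3 comparisons a single transporter passed the test, the glutamate carrier SLC1A7. The test was edgeR's quasi-likelihood test over all 21223 genes, with a Benjamini-Hochberg adjusted p under 0.05. Between everolimus-resistant and parental cells 0 of 27 passed, against 0.00471% of all genes, which is 1 gene. There, 4 of 27 had an unadjusted p under 0.05 (8.79% of all genes), while DESeq2 (0.693% of all genes) and limma-voom (1 gene among all genes) called 0 of 27. Between ridaforolimus-resistant and parental cells 1 of 27 passed, with 0.320% of all genes called in either direction and 0.127% called lower. There, 4 of 27 had an unadjusted p under 0.05 (14.5% of all genes), and DESeq2 also called 1 (2.71% of all genes). Between the resistant lines 1 of 27 passed, with 0.744% of all genes called in either direction and 0.273% called lower. Of the 27, 7 had an unadjusted p under 0.05 (14.1% of all genes), and DESeq2 called 2 (3.10% of all genes), SLC1A7 and SLC1A3.

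Most estimates lay below 0 against parental cells. The median log2 fold change of the 27 genes was -0.17 in everolimus-resistant cells, where the median of all genes was 0.02, and 16 of 27 estimates were below 0 (47.6% of all genes). It was -0.33 in ridaforolimus-resistant cells (0.01 over all genes), and 19 of 27 were below 0 (48.7% of all genes). Between the lines, as ridaforolimus over everolimus, it was -0.08 (-0.02 over all genes), with 14 of 27 below 0 (51.7% of all genes). Both libraries lay below both parental libraries for 9 of 27 genes in the everolimus group (20.5% of all genes) and for 12 of 27 in the ridaforolimus group (24.3% of all genes). Both lay above for 7 of 27 (20.6% of all genes) and for 4 of 27 (25.1% of all genes). Ridaforolimus libraries lay below both everolimus libraries for 9 of 27 (20.4% of all genes) and above for 1 of 27 (20.9% of all genes), SLC3A1. Single libraries moved the medians: the first was -0.41 without everolimus replicate 1 and 0.04 without replicate 2, the second -0.55 without ridaforolimus replicate 1 and -0.11 without replicate 2, and the third ranged from -0.36 (ridaforolimus replicate 1 left out) to 0.08 (everolimus replicate 1 left out). Both comparisons share the 2 parental libraries.

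**Figure D2:**
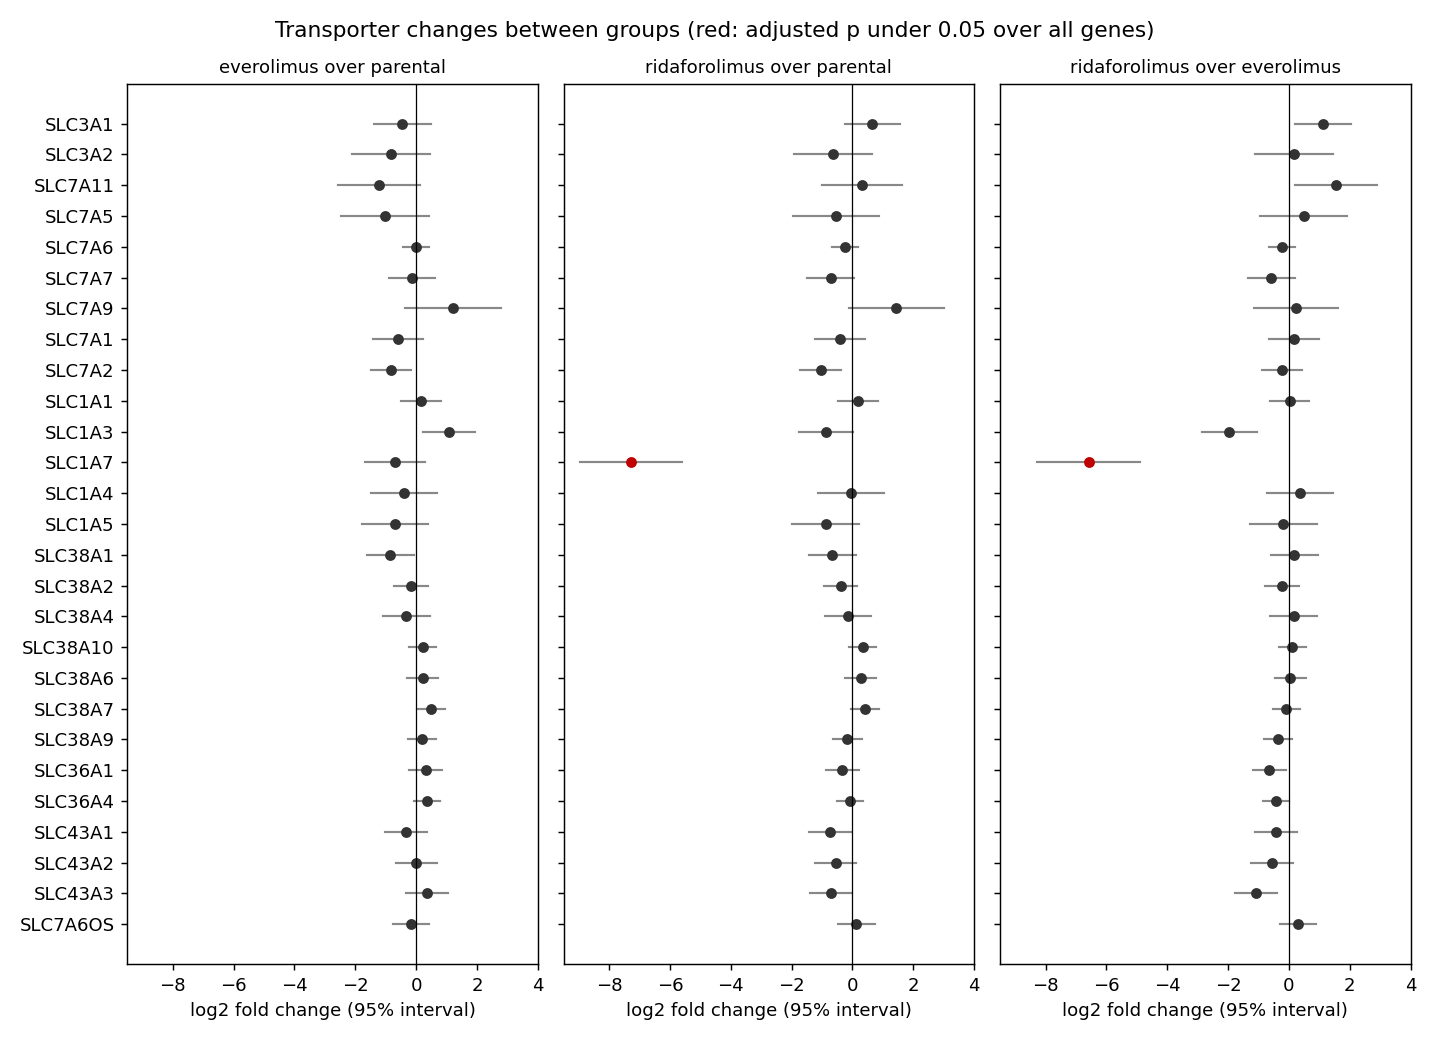
Log2 fold change of each gene with a 95% interval derived from edgeR's estimate and F statistic. Panels are for everolimus over parental, ridaforolimus over parental and ridaforolimus over everolimus, with red points for an adjusted p under 0.05. SLC1A7 is the only red point, at -7.28 and -6.59, and the left panel shows the wide intervals of SLC7A5 (-2.47 to 0.41), SLC7A11 (-2.55 to 0.12) and SLC3A2 (-2.10 to 0.47).

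Among the carriers of acidic amino acids, SLC1A7 fell in ridaforolimus-resistant cells against both other groups. SLC1A7 (EAAT5, ENSG00000162383) is a glutamate carrier with a chloride conductance, known mainly from the retina, and lies on the minus strand of chromosome 1 at 53087179 to 53142632 (GRCh38, GENCODE 29). Its counts were 134 and 222 in parental cells, 144 and 85 in everolimus-resistant cells and 0 and 2 in ridaforolimus-resistant cells. As CPM these were 10.2 and 15.6, then 10.4 and 5.62, then 0 and 0.146. Both ridaforolimus libraries were thus far below the other 4, while everolimus and parental libraries overlapped. In bulk RNA, fewer cells with a transcript and less of it per cell cannot be told apart. The log2 fold change was -7.28 ± 0.73 (SE) against parental cells (95% interval -8.95 to -5.60, adjusted p = 0.0109 by edgeR) and -6.59 ± 0.74 against everolimus-resistant cells (-8.29 to -4.88, adjusted p = 0.0129 by edgeR). These fitted values depend on the prior count, since 1 library was at 0. Their standard errors and intervals, derived from the fold change and the test statistic, are therefore approximate. DESeq2 gave wider standard errors, at -7.45 ± 1.11 against parental and -6.75 ± 1.11 against everolimus-resistant cells. From summed counts, 356 in parental and 2 in ridaforolimus libraries, the level was 175-fold higher in parental cells, with an interval of 48.1 to 1450 that covers counting error only. From 229 counts in everolimus libraries the ratio was 106 (29.04 to 881). Everolimus over parental stood at -0.69 ± 0.43 (adjusted p = 0.689 by edgeR).

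The SLC1A7 calls rest on few libraries. By edgeR with 1 library left out, the adjusted p of SLC1A7 against parental cells was 0.0655 or 0.0906 when parental replicate 1 or parental replicate 2 was dropped, and 0.0506 when ridaforolimus replicate 2 was. Without ridaforolimus replicate 2 the fitted fold change of SLC1A7 against parental cells was -10.49. Against everolimus-resistant cells the adjusted p of SLC1A7 was 0.0564 without ridaforolimus replicate 2, where the fold change was -9.79, and 0.0646 with only these 2 groups in the fit. Under DESeq2 the adjusted p of SLC1A7 was 1.17e-08 and 3.98e-07.

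Genes beside SLC1A7 were set beside it after its values were seen. Within 250 kb on either side, the ratio of mean CPM in ridaforolimus over parental cells was 0.626 for ZYG11A, 0.866 for ECHDC2, 0.959 for SCP2, 0.875 for CPT2, 0.621 for CZIB, 0.574 for MAGOH and 1.63 for LRP8. PODN, nearest on one side, was at most 0.282 CPM in any library. The neighbours with counts in all libraries thus stayed between 0.574 and 1.63 times their parental level, where SLC1A7 stood at 0.00565.

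SLC1A3 (EAAT1, GLAST, ENSG00000079215), a glutamate and aspartate carrier known from glia, stood on opposite sides of parental cells in the resistant lines. It is on the plus strand of chromosome 5 at 36606355 to 36688334. Its level was 12.1 and 18.8 CPM in parental, 42.6 and 23.1 CPM in everolimus and 6.40 and 10.5 CPM in ridaforolimus libraries. No groups overlapped. Its everolimus over parental estimate was 1.08 ± 0.38 (95% interval 0.22 to 1.95, adjusted p = 0.507 by edgeR), against -0.87 ± 0.39 in the ridaforolimus line (-1.76 to 0.02, adjusted p = 0.352 by edgeR). The lines differed by -1.95 ± 0.39 (-2.85 to -1.06), which missed the threshold in edgeR (adjusted p = 0.0734) and passed in DESeq2 (adjusted p = 3.00e-04). In edgeR the adjusted p of SLC1A3 between the lines was 0.0465 without everolimus replicate 2 and 0.120 to 0.175 without each of the other 5 libraries. The window printed above for SLC1A3 lies before an upstream start, outside the gene body in GENCODE 29.

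SLC1A1 (EAAT3), a neuronal and epithelial glutamate carrier that also takes up cysteine, was at 6.49 to 9.28 CPM in the 6 libraries. Its groups overlapped in all 3 comparisons, and its estimates against parental cells were 0.17 (95% interval -0.49 to 0.82) and 0.19 (-0.46 to 0.85).

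The exchangers of small neutral amino acids were at unequal levels. SLC1A5 (ASCT2), which exchanges glutamine, was at 206 and 268 CPM in parental, 165 and 127 CPM in everolimus and 199 and 58.2 CPM in ridaforolimus libraries. All 4 resistant libraries were below both parental ones, with ridaforolimus replicate 2 lowest. The estimates were -0.70 ± 0.48 (95% interval -1.79 to 0.40, adjusted p = 0.726 by edgeR) and -0.88 ± 0.48 (-1.98 to 0.22, adjusted p = 0.442 by edgeR). SLC1A4 (ASCT1), which exchanges alanine, serine and cysteine, was at 18.3 and 24.5 CPM, then 22.7 and 9.72 CPM, then 28.7 and 12.6 CPM. Its groups overlapped in every comparison.

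The heavy chain SLC3A2 and its main light chains SLC7A5 and SLC7A11 did not pass in any comparison after the filter on low counts, and the libraries of each resistant line lay further apart for them than the parental ones. SLC3A2 (ENSG00000168003, plus strand of chromosome 11 at 62856102 to 62888875) was at 378 and 395 CPM in parental, 287 and 153 CPM in everolimus and 395 and 98.1 CPM in ridaforolimus libraries. The everolimus libraries were below the parental ones, while the ridaforolimus libraries spanned them. Its log2 fold changes against parental cells were -0.82 ± 0.56 (95% interval -2.10 to 0.47) and -0.65 ± 0.56 (-1.93 to 0.63), with adjusted p = 0.724 and 0.632 by edgeR. With no filter beyond 1 count, edgeR called SLC3A2, SLC7A5 and SLC7A11 for everolimus over parental (adjusted p = 0.0372, 0.00141 and 8.54e-05) and SLC7A11 between the lines (2.13e-08). That setting raised the calls over all genes as well, from 1 to 493 for everolimus over parental, and calls between the lines also rose.

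SLC7A5 (LAT1, ENSG00000103257, minus strand of chromosome 16 at 87830023 to 87869488) carries leucine, tryptophan and other large neutral amino acids. Its level was 632 and 695 CPM in parental, 410 and 242 CPM in everolimus and 767 and 145 CPM in ridaforolimus libraries. The highest and the lowest of the 6 values were thus in the same group. The estimates were -1.03 ± 0.63 (95% interval -2.47 to 0.41) for everolimus and -0.54 ± 0.62 (-1.97 to 0.89) for ridaforolimus over parental, with adjusted p = 0.685 and 0.736 by edgeR. Without ridaforolimus replicate 1 the second was -2.21, and without ridaforolimus replicate 2 it was 0.22.

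SLC7A11 (xCT, ENSG00000151012, minus strand of chromosome 4 at 138164097 to 138242349) imports cystine for glutathione synthesis. It was at 290 and 322 CPM in parental, 197 and 65.9 CPM in everolimus and 578 and 188 CPM in ridaforolimus libraries. The everolimus libraries were below the parental ones and the ridaforolimus libraries spanned them. Everolimus over parental was -1.22 ± 0.58 (95% interval -2.55 to 0.12, adjusted p = 0.598 by edgeR), the lowest estimate of the 27 genes in that comparison. Ridaforolimus over parental was 0.32 ± 0.57 (-0.99 to 1.64, adjusted p = 0.839 by edgeR). Between the lines it was 1.54 ± 0.59 (0.20 to 2.89, adjusted p = 0.296 by edgeR), the highest of the 27. SLC7A11-AS1, which overlaps it on the opposite strand, was at 10.3 and 11.3, 10.1 and 2.31, and 26.7 and 13.3 CPM. The strand setting of the counting is not given in the sources used here, so reads of such pairs may be mixed.

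The ratio of light to heavy chain mRNA, a description chosen after the values were seen, is given for both main light chains. SLC7A5 over SLC3A2 in CPM was 1.67 and 1.76 in parental cells, 1.43 and 1.58 in the everolimus line and 1.94 and 1.47 in the ridaforolimus line. Its range was 1.36-fold, while SLC7A5 itself ranged over 5.31-fold. SLC7A11 over SLC3A2 was 0.766 and 0.815 in parental cells, 0.686 and 0.431 in the everolimus line and 1.46 and 1.91 in the ridaforolimus line. Here the everolimus libraries were both below, and the ridaforolimus libraries both above, the parental ones. These ratios were not tested.

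**Figure D3:**
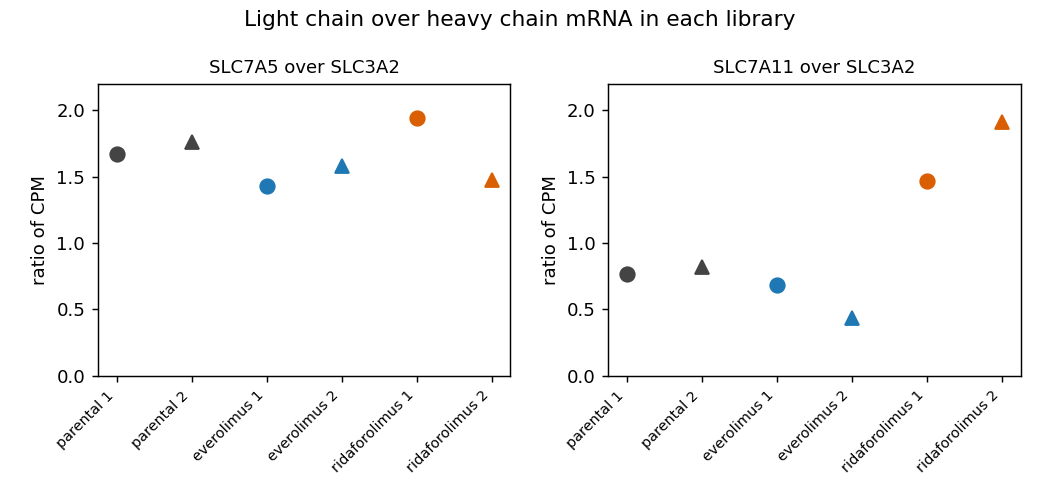
Ratio of light chain to heavy chain level in CPM in each library, for SLC7A5 over SLC3A2 on the left and SLC7A11 over SLC3A2 on the right, with colours for groups and both axes from 0. The left ratio stays between 1.43 and 1.94, and the right one runs from 0.431 in everolimus replicate 2 to 1.91 in ridaforolimus replicate 2.

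Other light chains were lower in level. SLC7A6 (y+LAT2), which exchanges arginine for neutral amino acids, was at 30.4 to 39.1 CPM and had a range of 1.29-fold, the narrowest of the 27 genes. SLC7A6OS overlaps it on the other strand and was at 9.92 to 16.3 CPM. SLC7A7 (y+LAT1), mutated in lysinuric protein intolerance, was at 7.11 and 7.75, 8.55 and 4.96, and 4.65 and 4.38 CPM. Both ridaforolimus libraries of SLC7A7 were below all others (-0.72 ± 0.33, 95% interval -1.48 to 0.05 against parental cells), without passing. SLC7A9, the light chain that exchanges cystine and basic amino acids in the kidney, did not exceed 1.10 CPM. Its heavy chain SLC3A1 did not exceed 3.51 CPM and was higher in ridaforolimus than in everolimus libraries (1.12 ± 0.40, 95% interval 0.21 to 2.03, adjusted p = 0.265 by edgeR). PREPL overlaps SLC3A1 on the opposite strand.

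Of the cationic amino-acid carriers, SLC7A1 (CAT1), the widespread carrier of arginine and lysine, was at 419 and 442 CPM in parental, 305 and 266 CPM in everolimus and 454 and 189 CPM in ridaforolimus libraries. The everolimus libraries were below the parental ones, and the ridaforolimus libraries spanned them. SLC7A2 (CAT2), an arginine carrier known from liver and macrophages, was at 64.9 and 113 CPM, then 42.2 and 59.2 CPM, then 43.7 and 42.8 CPM. All 4 resistant libraries of SLC7A2 were below both parental ones. Its estimates were -0.81 ± 0.29 (95% interval -1.48 to -0.15, adjusted p = 0.514 by edgeR) and -1.04 ± 0.29 (-1.71 to -0.38, adjusted p = 0.180 by edgeR).

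Of the SLC38 carriers of system A, SLC38A1 and SLC38A2 were among the most abundant transporters and SLC38A4 was not. SLC38A1 (SNAT1), a sodium-coupled glutamine carrier, was at 1134 and 1143 CPM in parental, 815 and 448 CPM in everolimus and 898 and 534 CPM in ridaforolimus libraries. All 4 resistant libraries were below both parental ones. The estimates were -0.85 ± 0.34 (95% interval -1.62 to -0.08, adjusted p = 0.531 by edgeR) and -0.67 ± 0.34 (-1.44 to 0.10, adjusted p = 0.404 by edgeR). SLC38A2 (SNAT2), a carrier induced by amino-acid scarcity, was at 586 and 618, 650 and 420, and 441 and 477 CPM. Only its ridaforolimus libraries were both below the parental ones (-0.39 ± 0.24, 95% interval -0.94 to 0.16). SLC38A4 (SNAT4), known from liver and placenta, was at 10.1 to 20.1 CPM with no order between groups apart from everolimus libraries just below parental ones (14.4 and 12.6 against 15.1 and 18.5 CPM).

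The other SLC38 proteins ranged over 1.36-fold to 1.57-fold across the libraries. SLC38A9, the lysosomal arginine sensor that acts on Rag GTPases and mTORC1, was at 33.1 and 32.7, 42.2 and 32.7, and 30.0 and 28.6 CPM. Its estimates were 0.19 (95% interval -0.28 to 0.65) and -0.16 (-0.63 to 0.30). SLC38A7 (SNAT7), a lysosomal exporter of glutamine, was at 26.2 and 24.9 CPM in parental cells and at 39.3, 32.7, 33.7 and 34.3 CPM in the resistant libraries. All 4 resistant libraries of SLC38A7 were above the parental ones (0.49 ± 0.20 and 0.41 ± 0.20), with adjusted p = 0.534 and 0.378 by edgeR. SLC38A10 (56.8 to 77.4 CPM) and SLC38A6 (27.4 to 39.9 CPM), carriers that are less well described, had ranges of 1.36-fold and 1.46-fold.

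The SLC36 carriers SLC36A1 (PAT1), which exports small neutral amino acids from lysosomes, and SLC36A4 (PAT4) shared an order between groups. SLC36A1 was at 22.1 and 17.5, 23.5 and 25.4, and 17.8 and 13.6 CPM. SLC36A4 was at 35.4 and 40.5, 50.2 and 46.7, and 36.7 and 35.2 CPM. Everolimus libraries of both genes were above every parental and every ridaforolimus library. The estimates between the lines were -0.64 ± 0.24 (95% interval -1.19 to -0.10) and -0.43 ± 0.18 (-0.85 to -0.01), with adjusted p = 0.282 and 0.351 by edgeR.

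The SLC43 family had lower estimates in ridaforolimus-resistant cells for all 3 members, none of which passed. SLC43A1 (LAT3), a facilitated carrier of leucine and phenylalanine, was at 31.9 and 41.6, 37.9 and 20.6, and 22.5 and 21.3 CPM. Its estimate for ridaforolimus over parental was -0.75 ± 0.30 (95% interval -1.44 to -0.05, adjusted p = 0.314 by edgeR). SLC43A2 (LAT4), a carrier of the same kind, was at 13.4 and 14.2, 17.3 and 10.5, and 8.38 and 10.4 CPM. SLC43A3, now described as a purine transporter, was at 45.2 and 61.1 CPM in parental, 69.7 and 67.8 CPM in everolimus and 42.5 and 22.4 CPM in ridaforolimus libraries. No groups of SLC43A3 overlapped, and the estimate between the lines was -1.08 ± 0.30 (-1.78 to -0.38, adjusted p = 0.167 by edgeR).

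The libraries of a resistant line differed from each other in several transporters. The labels do not say what the replicate numbers stand for, and these ratios and the choice of genes were made after the values were seen. In the ridaforolimus line, replicate 1 over replicate 2 in CPM was 5.31 for SLC7A5, 4.02 for SLC3A2, 3.42 for SLC1A5, 3.08 for SLC7A11, 2.40 for SLC7A1 and 2.27 for SLC1A4. In the everolimus line the same ratios were 1.69, 1.88, 1.30, 2.98, 1.15 and 2.33, and in the parental line they were 0.748 to 0.957. The abundant SLC38A1 and SLC38A2 had ratios of 1.68 and 0.925 in the ridaforolimus and 1.82 and 1.55 in the everolimus line. With 1 CPM added to both levels, 6 of the 27 genes (22.2%) were at least 2-fold lower in ridaforolimus replicate 2 than in replicate 1, against 1.70% of all genes. In the everolimus line it was 2 of 27 (7.41%, against 3.20% of all genes), and in the parental line 0 (0.825% of all genes). The summed share of counts of the 41 genes was 0.400% and 0.436% in parental cells, 0.359% and 0.217% in the everolimus line and 0.418% and 0.216% in the ridaforolimus line.

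Of 19 tested genes of the integrated stress response, 6 were at least 2-fold lower in ridaforolimus replicate 2 than in replicate 1, and of 31 enzymes of the transported amino acids 8 were, on the same scale (1.70% of all genes). In the everolimus line 5 and 6 were (3.20% of all genes), and in the parental line 0 and 0. The other way, 2 of the 31 enzymes were at least 2-fold higher in everolimus replicate 2 (2.16% of all genes). The summed level of the stress list was 3237 and 2808 CPM in the ridaforolimus libraries. After the values were seen 8 genes were picked, from these lists and, for SESN2, from the genes of amino-acid sensing upstream of mTORC1. Their replicate 1 over replicate 2 in the ridaforolimus line was 10.1 for CHAC1 (glutathione degradation), 7.15 for the pseudokinase TRIB3, 5.51 for PSAT1 (serine synthesis), 5.33 for SESN2 (a leucine sensor), 5.30 for ASNS (asparagine synthetase), 3.67 for CEBPG, 2.16 for DDIT3 and 1.81 for ATF4. In the everolimus line the ratios of CHAC1, TRIB3 and SESN2 were 12.4, 6.15 and 6.13, and those of ASNS, DDIT3, PSAT1, CEBPG and ATF4 were 3.74, 2.45, 2.12, 2.01 and 1.56. In the parental line all 8 were between 0.673 and 1.15. In both resistant lines replicate 2 was below replicate 1 in these 8 picked genes and in the 6 picked transporters. Over the whole stress list, replicate 2 was lower for 12 of 19 genes in the ridaforolimus line and 13 of 19 in the everolimus line. For the enzymes it was 27 of 31 and 15 of 31, and for the 27 members 17 and 23 (49.3% and 52.5% of all genes). In the parental line it was 11 of 19 stress genes, 10 of 31 enzymes and 7 of 27 members (50.9% of all genes). The part of the stress response in the transporters' levels was not tested.

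**Figure D4:**
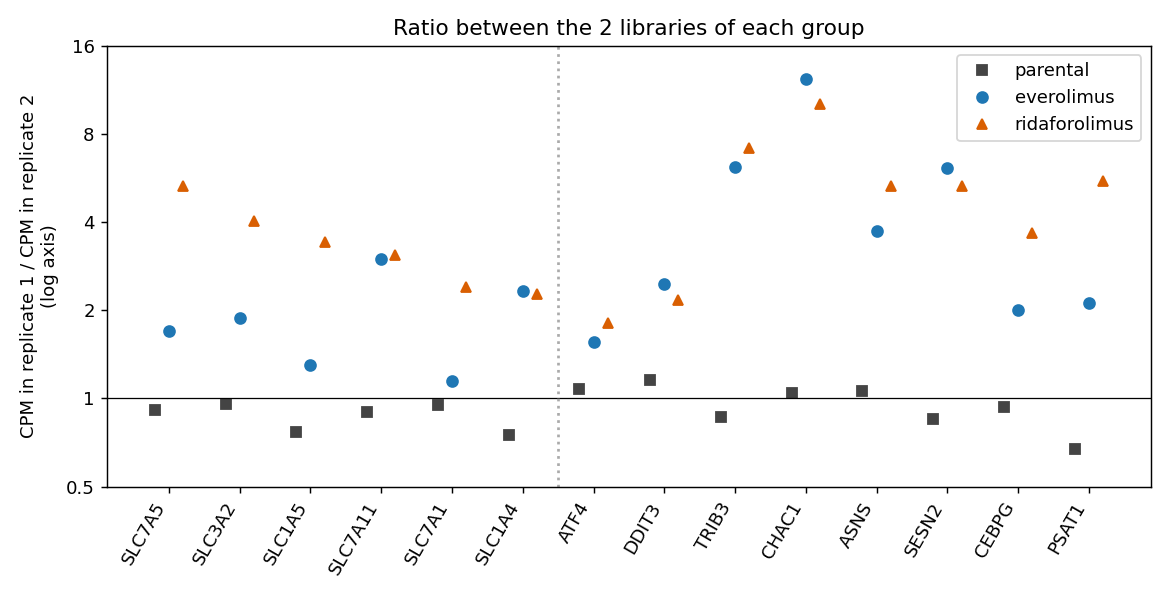
CPM in replicate 1 divided by CPM in replicate 2 within each group, on a log axis. Left of the dotted line are 6 transporters and right of it 8 stress, synthesis and sensing genes, all picked after the values were seen. Parental ratios lie between 0.673 and 1.15, while ridaforolimus ratios run from 1.81 to 10.1 and everolimus ratios from 1.15 to 12.4.

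Other genes of amino-acid transport and sensing were counted from lists by role. By edgeR, 0 genes passed in each of the 3 comparisons among 9 tested transporters of the plasma membrane from other families, 11 mitochondrial carriers, 6 other lysosomal transporters, 31 genes of amino-acid sensing upstream of mTORC1, 19 of the integrated stress response, 31 enzymes of the transported amino acids and 12 regulators of transport. Over all genes 0.00471% (everolimus over parental), 0.320% (ridaforolimus over parental) and 0.744% (ridaforolimus over everolimus) passed. By comparison, in the order above, 7, 23 and 17 of these 119 genes had an unadjusted p under 0.05 (8.79%, 14.5% and 14.1% of all genes), DESeq2 called 0, 4 and 1 (0.693%, 2.71% and 3.10% of all genes), and limma-voom called 0 in each. Among all genes limma-voom called 1 for everolimus over parental and 72 for ridaforolimus over parental. Its count over all genes between the lines is not reported here, so its 0 there has no share beside it. Medians for everolimus and ridaforolimus over parental were -0.45 and -0.44 for the stress response, where 14 and 13 of 19 estimates were below 0 (47.6% and 48.7% of all genes). They were -0.24 and -0.34 for the enzymes, where 24 and 25 of 31 were below 0, and -0.04 and -0.09 for the sensing genes, where 17 of 31 were below 0 in each. The other plasma membrane transporters had medians of -0.11 and -0.84. Among the markers, GATA3, a luminal transcription factor, fell in the ridaforolimus line against the everolimus line (3.91 and 5.88 against 0.915 and 0.950 CPM, -2.38 ± 0.38, adjusted p = 0.0403 by edgeR). The adjusted p of GATA3 was 0.0920 to 0.190 with each library but everolimus replicate 1 left out in turn, and 0.0539 to 0.13 under 5 other settings (limma-voom, only these 2 groups, the replicate block, protein-coding genes only, no genes of chromosome X).

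Ranked by size among genes averaging at least 5 CPM, the 2 leading members of each list are given as log2 fold changes, none of which passed in edgeR. DESeq2 called ATF3, CD44, SESN3 and SLC25A22 for ridaforolimus over parental and NEDD4 between the lines. For everolimus over parental they were SLC6A9 (glycine, -0.71) and SLC6A8 (creatine, -0.33), SLC25A38 (-0.49) and SFXN2 (0.47), the lysosomal cystine exporter CTNS (0.37) and SLC17A5 (0.29), SESN2 (-1.05) and CASTOR2 (-0.69), CHAC1 (-2.28) and DDIT3 (-1.40), ASNS (-1.38) and CTH (-1.25), and CD44 (0.43) and SGK1 (0.41). For ridaforolimus over parental they were SLC6A9 (-1.42) and SLC22A4 (-0.84), the glutamate carrier SLC25A22 (-0.80) and SFXN3 (0.67), SLC17A5 (0.59) and SLC15A4 (0.43), SESN3 (1.21) and RRAGA (-0.63), STC2 (-1.69) and ATF3 (1.5), ASS1 (argininosuccinate synthase, -1.87) and SHMT2 (-1.04), and CD44 (1.24) and KEAP1 (-0.64). Between the lines they were SLC22A4 (-0.88) and SLC6A9 (-0.71), SFXN3 (0.80) and SLC25A44 (-0.44), SLC15A4 (0.36) and CTNS (-0.31), SESN3 (0.82) and SESN2 (0.64), VLDLR (1.26) and CHAC1 (0.86), ASS1 (-1.81) and PYCR3 (-0.90), and KEAP1 (-0.98) and NEDD4 (0.89). ATF4 (-0.27 and -0.26 against parental cells) and MYC (-0.0046 and 0.10) did not pass.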

How the data were processed

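The authors deposited raw read counts per gene ID in a table of 6 libraries, neither normalised nor pooled. Libraries were made from total RNA with Illumina's stranded mRNA kit, per the labels' protocols. Trim Galore 0.6.6, STAR 2.7.9a, HTSeq 0.13.5, DESeq2 and the build GRCh38 are named per the submitters' processing notes, without roles. For the counting, annotation and strand setting are not stated in the sources used here, so counts of overlapping genes on opposite strands are uncertain (SLC7A6 and SLC7A6OS, SLC7A11, SLC38A2 and SLC38A4 with their antisense transcripts, SLC3A1 and PREPL, SLC38A6 and TRMT5, SLC1A1 and SPATA6L).

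Symbols matched 62625 of 69292 IDs, and positions, exon lengths and gene types came from GENCODE 29. Counts were fitted with edgeR 4.0.16 in R 4.3.3 (TMM, filterByExpr by group, quasi-likelihood test, two-sided) on all 6 libraries with 3 residual degrees of freedom, and p-values were adjusted by Benjamini-Hochberg over 21223 genes at 0.05. Standard errors were derived from that fit, as the absolute log2 fold change divided by the square root of the test's F statistic. The 95% intervals apply a t quantile to them. Both are approximate where a library is at or near 0, since the fold change then depends on the prior count. Other settings were DESeq2 1.42.0, limma 3.58.1 (voom), DESeq2 size factors in edgeR, 2 other filters on low counts, only the groups compared, a replicate block, protein-coding genes only, no chromosome X genes and each library left out. In DESeq2, 1646, 2469 and 1646 genes had no adjusted p in the 3 comparisons. The fit was tested on simulated counts for ridaforolimus over parental, where 69.1% of genes changed 4-fold were called. Unchanged genes made up 11.3% of the calls, a larger share than the threshold of 0.05 allows. Libraries of a group differed by more than sampling noise (chi-square over degrees of freedom 14.9 to 37.7), so all were kept as separate. The labels do not say whether they came from separate cultures, so p-values measure the spread between these libraries, which may be technical.

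Members and lists were chosen with earlier results of these data known. All members with at least 10 counts in 2 libraries were named. From the other lists, called genes, the 2 largest changes per comparison at a mean of at least 5 CPM, and ATF4, DDIT3, MYC, SESN2 and ASNS were named; some genes of these lists are not reported here. Promoter sequences are RefSeq's (GRCh38.p14), and protein sequences were not used here.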

Additional observations from a re-analysis of the deposited data

Results flagged for a closer look

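In 4 transporters the resistant lines stood apart from each other in a way that merits another look. For SLC1A7 the direct test between the lines passed in edgeR, with a log2 fold change of ridaforolimus over everolimus of -6.59 (adjusted p = 0.0129). For 3 others both libraries of each line lay on opposite sides of both parental libraries, while the direct test did not pass in edgeR, a pattern that 5.25% of all genes tested showed. These were SLC1A3 (-1.95, adjusted p = 0.0734), SLC43A3 (-1.08, adjusted p = 0.167) and SLC3A1 (1.12, adjusted p = 0.265). SLC1A3 and SLC43A3 were higher in the everolimus and lower in the ridaforolimus line than in parental cells, and SLC3A1 the other way round at no more than 3.51 CPM.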

How the results depend on the processing

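Counts of calls moved with the filter, the tool, the groups in the fit and single libraries, and the cause was not tested. Transporters called by edgeR with no filter beyond 1 count were 5 (everolimus over parental), 4 (ridaforolimus over parental) and 5 (ridaforolimus over everolimus). These were SLC1A3, SLC38A1, SLC3A2, SLC7A5 and SLC7A11, then SLC1A5, SLC1A7, SLC7A2 and SLC7A10, then SLC1A3, SLC1A7, SLC43A3, SLC7A10 and SLC7A11, of which SLC7A10 had at most 12 counts in a library. DESeq2 called 2 in the last comparison, and a fit of only these 2 groups called 0. With 1 library left out the counts were 0 to 1 for ridaforolimus over parental and 0 to 2 between the lines. All genes called, 1, 68 and 158 in these comparisons, became 147, 575 and 658 with DESeq2 and 493, 1195 and 1362 with no filter. With a minimum of 5 CPM they were 0 in the first and 81 in the last, with only the 2 groups 0, 127 and 0, with protein-coding genes 0 and 75 in the first and last, and without chromosome X genes 37 and 74 in the second and last. With 1 library left out they were 0 to 3, 1 to 276 and 19 to 123.

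With the replicate block 0, 28 and 49 genes were called, and SLC1A7 was still called in both comparisons (adjusted p = 0.0418 and 0.0360 by edgeR). The correlation of deviations between same-numbered libraries was 0.33, -0.17 and -0.19. With 2 numbers a group and no label on their meaning, the libraries are treated as sharing only a number. Swapping the numbers of the ridaforolimus libraries in the block, a choice made after the data were seen, called 150, 814 and 1044 genes and 2 and 3 transporters in the last 2 comparisons.

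Of 721 recomputed estimates other than with a library left out, 7 changed sign, none of a gene that passed. For everolimus over parental, the log2 fold change of SLC43A2 became -0.044 (limma-voom), -0.00013 (no filter), -0.00014 (only the 2 groups) and -0.0076 (replicate block), and that of SLC7A6 became 0.026 (5 CPM minimum) and 0.039 (protein-coding genes). For ridaforolimus over everolimus, SLC3A2 became -0.089 with limma-voom.

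Of 486 estimates with 1 library left out, 43 changed sign, none of a gene that passed. For everolimus over parental the log2 fold changes ran from -1.14 to 0.074 (SLC1A4), -0.52 to 0.10 (SLC38A2), -0.0047 to 0.35 (SLC38A9), -0.83 to 0.035 (SLC43A1), -0.39 to 0.32 (SLC43A2), -0.010 to 0.0018 (SLC7A6), -0.41 to 0.025 (SLC7A6OS) and -0.58 to 0.20 (SLC7A7). For ridaforolimus over parental they ran from -0.042 to 0.39 (SLC1A1), -0.77 to 0.43 (SLC1A4), -0.18 to 0.020 (SLC36A4), -0.73 to 0.25 (SLC38A4), -1.99 to 0.038 (SLC3A2), -1.20 to 0.083 (SLC7A1), -0.71 to 0.93 (SLC7A11), -2.21 to 0.22 (SLC7A5) and -0.088 to 0.32 (SLC7A6OS). For ridaforolimus over everolimus they ran from -0.20 to 0.23 (SLC1A1), -0.35 to 1.08 (SLC1A4), -1.33 to 0.47 (SLC1A5), -0.24 to 0.67 (SLC38A1), -0.036 to 0.28 (SLC38A10), -0.50 to 0.12 (SLC38A2), -0.40 to 0.57 (SLC38A4), -0.20 to 0.27 (SLC38A6), -0.21 to 0.047 (SLC38A7), -1.16 to 0.87 (SLC3A2), -0.79 to 0.082 (SLC43A1), -0.60 to 0.69 (SLC7A1), -0.46 to 0.038 (SLC7A2), -1.17 to 1.26 (SLC7A5) and -0.36 to 0.65 (SLC7A9).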
